A study of Mus musculus with 8 samples.

Results

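The cytosolic ribosomal proteins, which build the large and small subunits of the ribosome outside the mitochondria, were followed in CD8 T cells of young and aged mice. They were chosen by name alone, as protein-coding RefSeq symbols made of Rpl or Rps and a digit, with the stalk proteins Rplp0, Rplp1 and Rplp2 and with Rpsa, and without the Rps6 kinases and the pseudogenes. Of 89 such symbols, 88 had a probe on the array. Of these, 86 were measured and tested among 21232 features, where a feature is a gene or an unnamed transcript read by 1 probe. They comprised 46 large subunit genes, 31 small subunit genes, 5 paralogs that can stand in for or differ from a common subunit (Rpl7l1, Rpl22l1, Rpl36al, Rpl39l and Rps27l) and 3 retrogenes or further copies (Rpl32l, Rpl37rt and Rps23rg1). The last one, Rps19bp1, fits the rule by its letters only and encodes a protein that binds Rps19. Rpl3l, a paralog of Rpl3 known from muscle, and Rpl10l, a paralog of Rpl10 known from testis, were on the array but well above background on 0 of the 8 arrays, and were not tested.

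Each ribosome needs 1 copy of nearly every ribosomal protein, and cells make these proteins from very abundant mRNAs in matched amounts. Many of these mRNAs begin with a run of pyrimidines, the 5′ terminal oligopyrimidine or TOP motif, through which mTORC1 and the RNA-binding protein Larp1 set how strongly they are translated, so that control often acts on translation and not on the amount of mRNA. Naive T cells are small and make little protein, and they enlarge their ribosome supply when they are activated.

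The mice were of the C57BL/6 background, 2 months (young) or 17 months (aged) old, and either wild type (WT) or labelled PD-1KO, a PD-1-/- genotype without PD-1, a receptor that restrains T cells and is the product of Pdcd1. Each age and genotype was sampled without tumor, from peripheral lymph nodes, and 9 days after injection of MC38, a mouse colon carcinoma line, from draining lymph nodes. CD8 T cells were taken with beads against CD8a, and 1 array was hybridized for each of the 8 groups, all on 1 slide. No group had a replicate, so every test set 4 arrays against 4 in an additive model of the 3 factors. Its error came from the departure of the 8 arrays from additivity, moderated over all features by limma. Node and tumor cannot be told apart, and neither can age and the row of the slide, since young arrays filled one row and aged arrays the other. Whether an array holds the RNA of 1 mouse or of several is not given in the sources used here.

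Across the arrays, 46.4% to 49.5% of probes were well above background, and the processed signal at the 75th percentile ran from 292 (Aged_WT) to 382 (Aged_PD-1KO). All 16 CD8 T cell core markers were measured on all 8 arrays. Their mean log2 level ran from 6.06 to 6.11 on the young arrays and from 5.82 to 6.01 on the aged arrays. With age 1 of them rose and 1 fell, the difference was below 0 for 13 of 16, and its median was -0.20. Levels are log2 signals minus the array's own 75th percentile throughout, and they are compared within a probe only. The Pdcd1 probe was well above background on all 8 arrays and differed by -0.02 between mice labelled PD-1KO and WT (limma, SE 0.49, adjusted p = 0.991). Where that probe lies relative to the deleted part is not given in the sources used here, so it does not check the genotype labels. Of 19 measured macrophage and monocyte markers, 11 rose with age and 0 fell, from mean levels of -1.05 to 0.33 on the young arrays to 0.91 to 1.80 on the aged arrays. Of 20 naive T cell markers, 6 fell with age and 0 rose. Of 26 effector and memory T cell, 10 NK and innate lymphoid cell and 16 B cell markers, 17, 7 and 6 rose and 0 fell. Of all features, 6.26% rose with age and 4.58% fell. The part of these shifts in the values below was not tested. In bulk RNA of this kind, fewer cells of a type and less RNA per cell cannot be told apart.

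The TOP motif is the sequence feature that ties this family to its control, so windows around the annotated transcription start were read from RefSeq (GRCm38.p6, a later build than the one named in the array files) for the 66 tested members that its promoter table holds. The search took a C followed by 4 or more bases that are each C or T, beginning within 2 bases of the annotated start, on the transcript strand alone. This rule was set after values were seen. Such a run was present at 24 of the members' 77 starts (31.2%) and at 2942 of 32851 starts of all genes in the table (8.96%). The windows below cover 10 bases before the start and 20 from it, 5′ to 3′ on the strand of the gene, with the run in capitals. Rps6 is shown as the target of the S6 kinases, Rps18, Rps10 and Rps24 because their probes disagreed below, Rps27 and Rps27l as a gene and its paralog, and Rpl38 as a large subunit protein known for its part in the translation of Hox mRNAs.
Rps6, chr4:86857348-86857377, minus strand: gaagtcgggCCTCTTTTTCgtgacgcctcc
Rps18, chr17:33955646-33955675, minus strand: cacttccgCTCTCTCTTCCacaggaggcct
Rps10, chr17:27635225-27635254, minus strand: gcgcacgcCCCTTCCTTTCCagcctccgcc
Rps24, chr14:24490668-24490697, plus strand: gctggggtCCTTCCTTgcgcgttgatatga
Rps27, chr3:90213629-90213658, minus strand: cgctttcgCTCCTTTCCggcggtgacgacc
Rps27l, chr9:66946076-66946105, plus strand: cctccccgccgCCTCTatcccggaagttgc
Rpl38, chr11:114668570-114668599, plus strand: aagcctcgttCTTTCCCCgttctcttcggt
The run was 12 bases long in Rps10, 11 in Rps18, 10 in Rps6 and 9 in Rps27, against 5 in Rps27l. Rps24 and Rps27l each had a second annotated start with no run. No match at a start says only that these letters are not there in that annotation. The 23 members with a run at any start and the 43 with a start and no run had like medians, at -0.10 and -0.10 with age, -0.08 and -0.12 with genotype, and -0.11 and -0.14 with tumor (log2 differences, described with no test).

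The ribosomal protein mRNAs varied about as little as other features of high level, and under this scaling most moved together from array to array. The SD of a member's level over the 8 arrays had a median of 0.19 and ran from 0.10 to 0.82, where all features had a median of 0.28 and the 1674 other features of log2 level 5 or more (a mark chosen after values were seen) one of 0.21. Only Rps20 (0.82), Rps24 (0.80) and Rpl39l (0.64) had an SD over 0.5. Relative to its own mean, the median member stood at 0.07, 0.13, 0.04 and -0.01 on the arrays Young_WT, Young_WT with tumor, Young_PD-1KO and Young_PD-1KO with tumor. It stood at 0.27 on Aged_WT, -0.19 on Aged_WT with tumor, -0.10 on Aged_PD-1KO and -0.14 on Aged_PD-1KO with tumor. The highest and the lowest value thus lay on the 2 aged WT arrays, and young and aged arrays overlapped. These 2 arrays also held the extreme values of some marker lists. The 3 measured erythroid markers of 10 listed, all globin genes, had a mean log2 level of 3.87 on Aged_WT and of -3.45 to 0.03 on the other 7 arrays. Aged_WT with tumor had the lowest mean of the naive T cell markers (2.98). It had the highest of the macrophage and monocyte (1.80) and the effector and memory T cell markers (4.32). Next to it in each of these lists came Aged_PD-1KO with tumor, at 3.54, 1.47 and 4.08. The part of these marker differences in the members' values was not tested. A member correlated with the mean of the others at a median r of 0.854 over the 8 arrays, which share their scaling, and 83 of 86 correlations were above 0. The like correlation among the other features of level 5 or more was not computed.

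How far the family moved as a whole depended on how the arrays were scaled. The medians spanned 0.466 between arrays with the 75th percentile, 0.310 with no scaling and 0.112 after quantile normalization, and 0.115 in the authors' deposited values. With quantile normalization the median correlation of a member with the others was 0.313, and 58 of 86 were above 0. The Aged_WT array, where the members stood highest, also had the lowest 75th percentile of signal, and with no scaling its median was 0.02. Counted by the 1 probe used for each, the members held 9.29% (Young_PD-1KO with tumor) to 10.9% (Aged_WT) of the summed signal of all non-control probes.

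**Figure D1:**
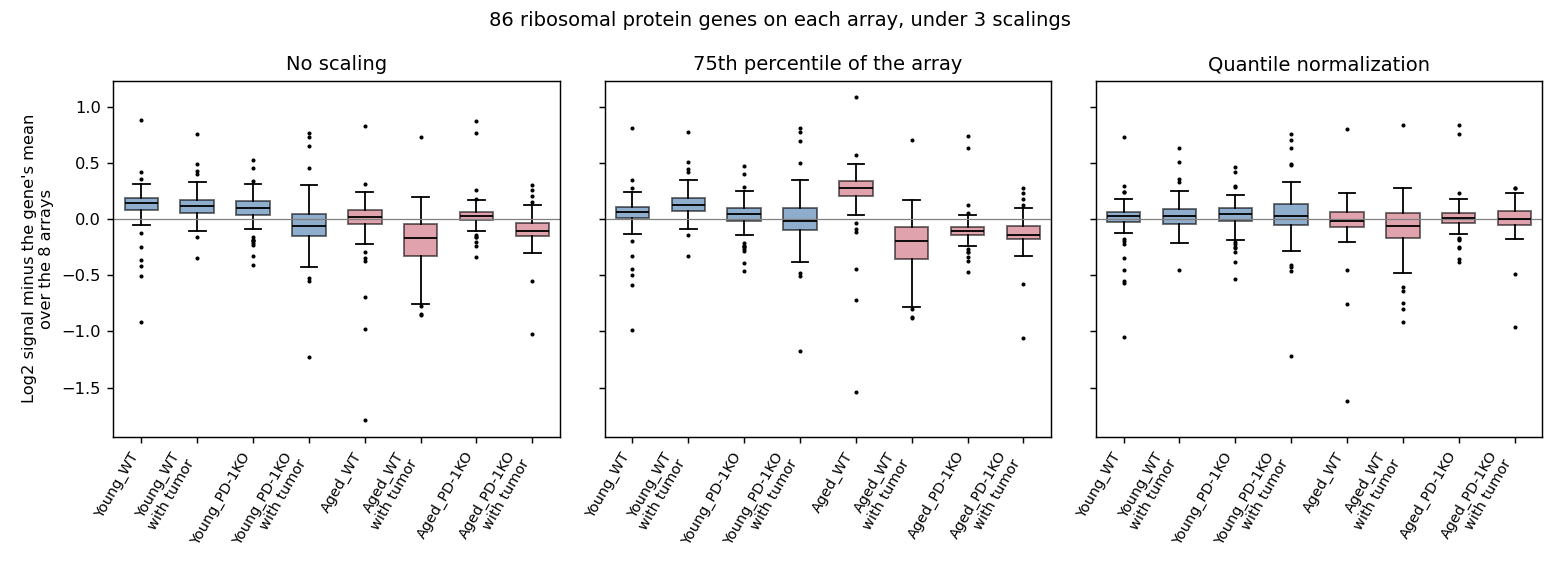
Log2 signal of the 86 ribosomal protein genes, each minus its own mean over the 8 arrays, by array under 3 scalings (boxes give quartiles, lines medians, whiskers the values within 1.5 box lengths; young arrays blue, aged red). With the 75th percentile the boxes follow the array, highest on Aged_WT at 0.27 and lowest on Aged_WT with tumor at -0.19, and after quantile normalization the medians span 0.112.

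The arrays measured these mRNAs well within the range of the scanner. In the members' probes, 0 spots were saturated, the brightest member reached a log10 signal of 5.44 to 5.52 per array, and the brightest spike-in reached 5.79 to 5.80 with a slope of 0.989 to 1.01. For 48 members, 60 probes were printed 9 or 10 times on each array. Their spots differed within an array by a median SD of 0.0645 on the log2 scale, and the same probes had a median SD of 0.186 over the 8 arrays, larger than the spot SD for all 60. The spots measure hybridization of 1 RNA sample and are no replicates of a condition. The probe used here was a single spot for 51 of the 86 members, among them Rps20, Rps24 and Rpl39l.

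Age gave no call among the ribosomal protein genes. limma called 0 of 86 at an adjusted p under 0.05, where it called 10.8% of all features, and 11 of 86 had an unadjusted p under 0.05, against 35.2% of all features. Among other features of level 5 or more, 3.52% were called and 23.9% had an unadjusted p under 0.05. The median difference, aged minus young, was -0.09 for the members (-0.07 for the large subunit, -0.11 for the small), -0.07 for all features and -0.13 for the other features of level 5 or more. The difference was below 0 for 70 of 86 members, 58.5% of all features and 76% of the other features of that level. With no scaling it was below 0 for 73 of 86 members, with a median of -0.13, and for 61.8% of all features. With quantile normalization it was below 0 for 56 of 86 members, with a median of -0.03. The 95% interval had a median of 0.30 to either side, and for 83 of 86 members it lay within a 2-fold change in both directions, the exceptions being Rpl7l1, Rps20 and Rps24. The groups did not overlap for 3 members that were lower on the aged arrays (Rpl7 and Rps19bp1 among them) and for 0 that were higher, where 12.4% and 7.77% of all features did so.

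The stalk proteins recruit the elongation factors to the large subunit, and their mRNAs stayed near 0 difference. Rplp0 had levels of 9.23, 9.33, 9.23 and 9.08 on the young arrays and 9.41, 8.88, 9.02 and 8.96 on the aged arrays (order WT, WT with tumor, PD-1KO, PD-1KO with tumor, here and below). The 2 sets overlapped, with a difference of -0.15 (SE 0.12, adjusted p = 0.420). Rplp1 and Rplp2 differed by -0.07 (SE 0.12) and 0.07 (SE 0.12). Rpl5 and Rpl11, which with the 5S rRNA form a particle that can bind Mdm2, differed by -0.26 (SE 0.21) and -0.03 (SE 0.13). Rpl22, a large subunit protein needed for the development of αβ T cells, and its paralog Rpl22l1 differed by 0.13 (SE 0.13) and -0.11 (SE 0.17). Rpl3, which lies near the site of peptide bond formation, Rpl10, which completes the large subunit late in its assembly, and Rpl38 differed by -0.003, -0.13 and -0.08 (SE 0.11, 0.14 and 0.13). Rpl36a differed by 0.16 (SE 0.17), and Rps19bp1, which is no ribosomal protein, by -0.34 (SE 0.11, adjusted p = 0.0803).

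In the small subunit, Rps6, which S6 kinases phosphorylate downstream of mTORC1, read 8.90, 8.94, 8.81 and 8.74 on the young and 9.07, 8.57, 8.74 and 8.62 on the aged arrays. The aged values lay on both sides of the young ones, with a difference of -0.10 (SE 0.11, adjusted p = 0.557). Rps19, mutated in Diamond-Blackfan anemia, and Rpsa, also known as a laminin receptor, differed by -0.04 (SE 0.12) and -0.03 (SE 0.11). Rps4x, encoded on the X chromosome, differed by -0.25 (SE 0.14), and Rps15 by -0.15 (SE 0.13).

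**Figure D2:**
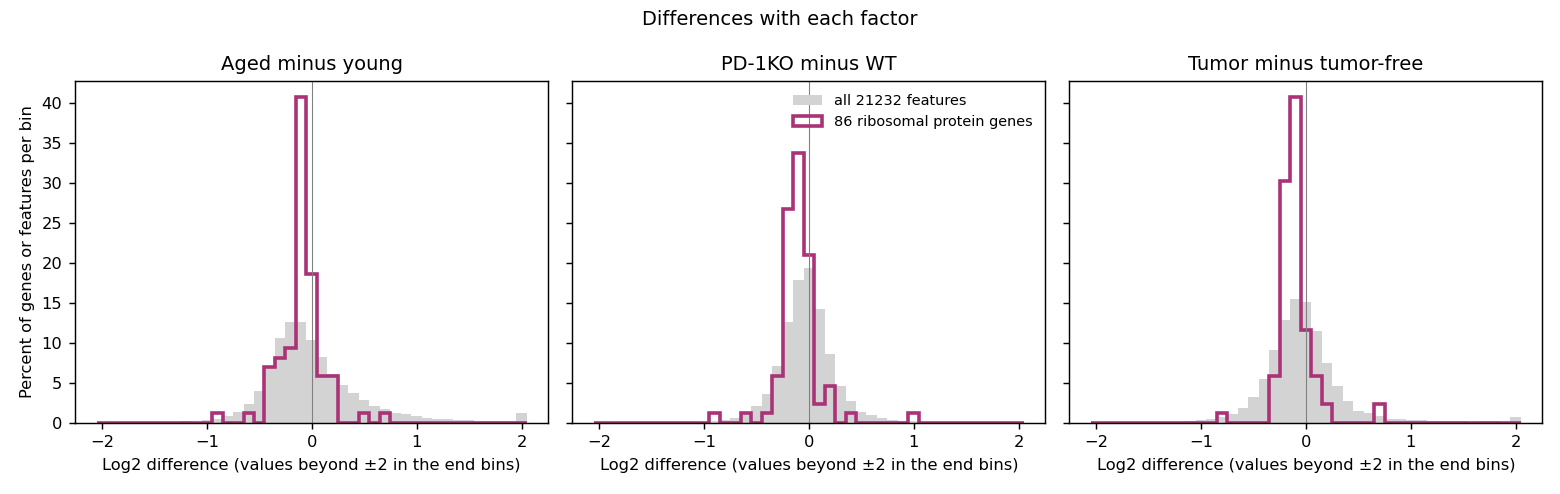
Share of features per bin of 0.1 of the log2 difference with age, genotype and tumor, for all 21232 features (grey) and the 86 ribosomal protein genes (line). The members sit in a narrow peak just below 0 in each factor, with medians of -0.09, -0.11 and -0.13, and 83 of 86 lie within 0.5 of 0 in each.

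The widest differences with age did not pass the test, and they are given as values. Rpl7l1, a paralog of Rpl7, came closest. It read -0.11, 0.39, 0.17 and 0.38 on the young arrays and -0.56, -0.90, -0.35 and 0.06 on the aged arrays, lower in 4 of 4 comparisons of an aged array with its young counterpart. The sets overlapped through Aged_PD-1KO with tumor, and the difference was -0.64 (SE 0.18, limma adjusted p = 0.0607). Rpl7 itself, a large subunit protein at the surface, differed by -0.44 (SE 0.17, adjusted p = 0.119). Rpl13a, a large subunit protein also known for translational silencing in myeloid cells, differed by -0.44 (SE 0.16) and Rps2 by -0.45 (SE 0.19). On the other side, Rps20, a protein of the head of the small subunit, read 8.62, 8.34, 8.15 and 7.26 on the young and 9.52, 9.13, 9.06 and 7.38 on the aged arrays. Both arrays of PD-1KO mice with tumor were low in it, so that the ages overlapped, and the difference was 0.68 (SE 0.24, adjusted p = 0.100). Rps27a, a ubiquitin fusion, Rps12 and Rpl36al differed by 0.23, 0.19 and 0.16, none past the test. Several of these values rested on 1 array. Rps12 came to 0.010 without Young_WT and 0.016 without Aged_WT, Rps27a to 0.14 and 0.098, and Rpl36al to 0.081 without Aged_WT. Rps2 and Rpl7 came to -0.23 and -0.27 without Aged_WT with tumor. With normexp background correction 5 members passed (Rpl13a, Rpl7l1, Rps18, Rps20 and Rps24), and without Aged_PD-1KO with tumor Rps20 did, with a difference of 0.94 and an adjusted p of 0.0492.

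Genotype gave no call either. limma called 0 of 86 members between mice labelled PD-1KO and WT, where it called 0.0283% of all features, and 5 of 86 had an unadjusted p under 0.05 against 10.4% of all features. The median difference, PD-1KO minus WT, was -0.11 for the members, -0.03 for all features and -0.04 for the other features of level 5 or more. The difference was below 0 in 68 of 86 members, 56.1% of all features and 59.5% of the other features of that level. With quantile normalization the members' median was 0.03 with 31 of 86 below 0, against -0.02 and 53.6% for all features. With no scaling the members' median was -0.03 with 46 of 86 below 0, against 0.05 and 39.5% for all features. The family thus had no direction with genotype that held under every scaling. The groups did not overlap for 4 members that were lower in PD-1KO (Rpl32, Rpl37a, Rps10 and Rps27) and for 0 that were higher, where 1.95% and 0.593% of all features did so.

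Rpl39l, the paralog of Rpl39 best known from testis, had the widest positive difference with genotype. Its levels were -1.29, -0.48, -1.42 and -1.59 on the WT arrays (young, young with tumor, aged, aged with tumor) and -0.30, -0.01, 0.03 and -0.58 on the PD-1KO arrays. It was higher in PD-1KO in 4 of 4 pairs, the sets overlapped by the young WT array with tumor, and the difference was 0.98 (SE 0.24, limma adjusted p = 0.431). Rpl39 itself differed by -0.22 (SE 0.13). Rps10, a small subunit protein that is also mutated in Diamond-Blackfan anemia, read 9.71, 9.84, 9.82 and 9.56 in WT and 9.49, 8.95, 8.95 and 9.10 in PD-1KO. All 4 PD-1KO arrays were lower than the 4 WT arrays, with a difference of -0.61 (SE 0.14, adjusted p = 0.406). Rps20 differed by -0.94 (SE 0.24, adjusted p = 0.431), lower in PD-1KO in 4 of 4 pairs, by -0.47 and -0.45 without tumor and by -1.09 and -1.76 with tumor. Rps27 differed by -0.31 (SE 0.12), Rpl13a by -0.39 (SE 0.16) and Rps18 by -0.28 (SE 0.15). On the positive side Rpl7l1, Rps2, Rpl37 and Rpl15 differed by 0.36, 0.24, 0.18 and 0.16, none past the test. Without Aged_WT with tumor they came to 0.17, 0.023, -0.033 and -0.12, and without Aged_PD-1KO with tumor Rps2 came to 0.13, Rpl37 to -0.0045 and Rpl15 to 0.028. Rps18 came to -0.14 without Young_WT with tumor.

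Tumor gave no call among the members or among all features. limma called 0 of 86 members and 0% of features, and 3 of 86 members had an unadjusted p under 0.05 (Rps20, Rps27l and Rps3a1) against 20.6% of all features. The median difference, tumor minus tumor-free, was -0.13 for the members, -0.06 for all features and -0.04 for the other features of level 5 or more. The difference was below 0 in 76 of 86 members, 59.2% of all features and 57.4% of the other features of that level. With no scaling it was below 0 in 76 of 86 members, with a median of -0.13, and in 59.7% of all features. With quantile normalization it was below 0 in 51 of 86 members, with a median of -0.03. Of 20 markers of proliferating cells, 0 were called by limma and all 20 had an unadjusted p under 0.05, their median difference was 2.27, and their mean level ran from 0.70 to 1.09 on the tumor-free and from 2.42 to 3.86 on the tumor arrays. The part of these cells in the members' values was not tested.

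Rps27l, a paralog of Rps27 known as a target of p53, was the 1 member whose tumor arrays all lay above the tumor-free arrays, where 4.32% of all features did so, and 0 members lay below, against 2.99%. It read 4.56, 4.62, 4.89 and 4.63 without tumor (young WT, young PD-1KO, aged WT, aged PD-1KO) and 5.30, 5.81, 4.98 and 5.23 with tumor. The gap between the sets was narrow on the aged WT side, and the difference was 0.66 (SE 0.18, limma adjusted p = 0.135). By pair, it came to 0.74 and 1.20 in young WT and PD-1KO and to 0.09 and 0.60 in aged WT and PD-1KO. A second Rps27l probe gave 3.45, 3.46, 3.70 and 3.40 without and 4.07, 4.77, 3.69 and 4.19 with tumor, with a difference of 0.68 (SE 0.21), and there the sets overlapped on the aged WT arrays. Both probes were high on the same 3 tumor arrays. Rps27 differed with tumor by -0.12 (SE 0.12). Rps20 lay at the other end, at -0.81 (SE 0.24, adjusted p = 0.148), lower with tumor in 4 of 4 pairs, followed by Rps3a1 at -0.33 (SE 0.11, adjusted p = 0.174), also lower in 4 of 4. Rpl13a and Rpl30 differed by -0.33 and -0.26, and Rps24, Rpl14, Rpl7l1 and Rpl38 by 0.67, 0.22, 0.20 and 0.10, none past the test. Rps24 came to 0.30 without Aged_WT, 0.36 without Young_PD-1KO and 1.00 without Young_WT. Rpl14 came to -0.14 without Young_WT, Rpl7l1 to 0.065 without Young_WT with tumor, and Rpl38 to 0.0083 without Young_PD-1KO with tumor. Rpl30 came to -0.13 without Aged_WT and -0.14 without Aged_WT with tumor, and Rpl13a to -0.19 and -0.21 without Young_PD-1KO or its tumor array.

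**Figure D3:**
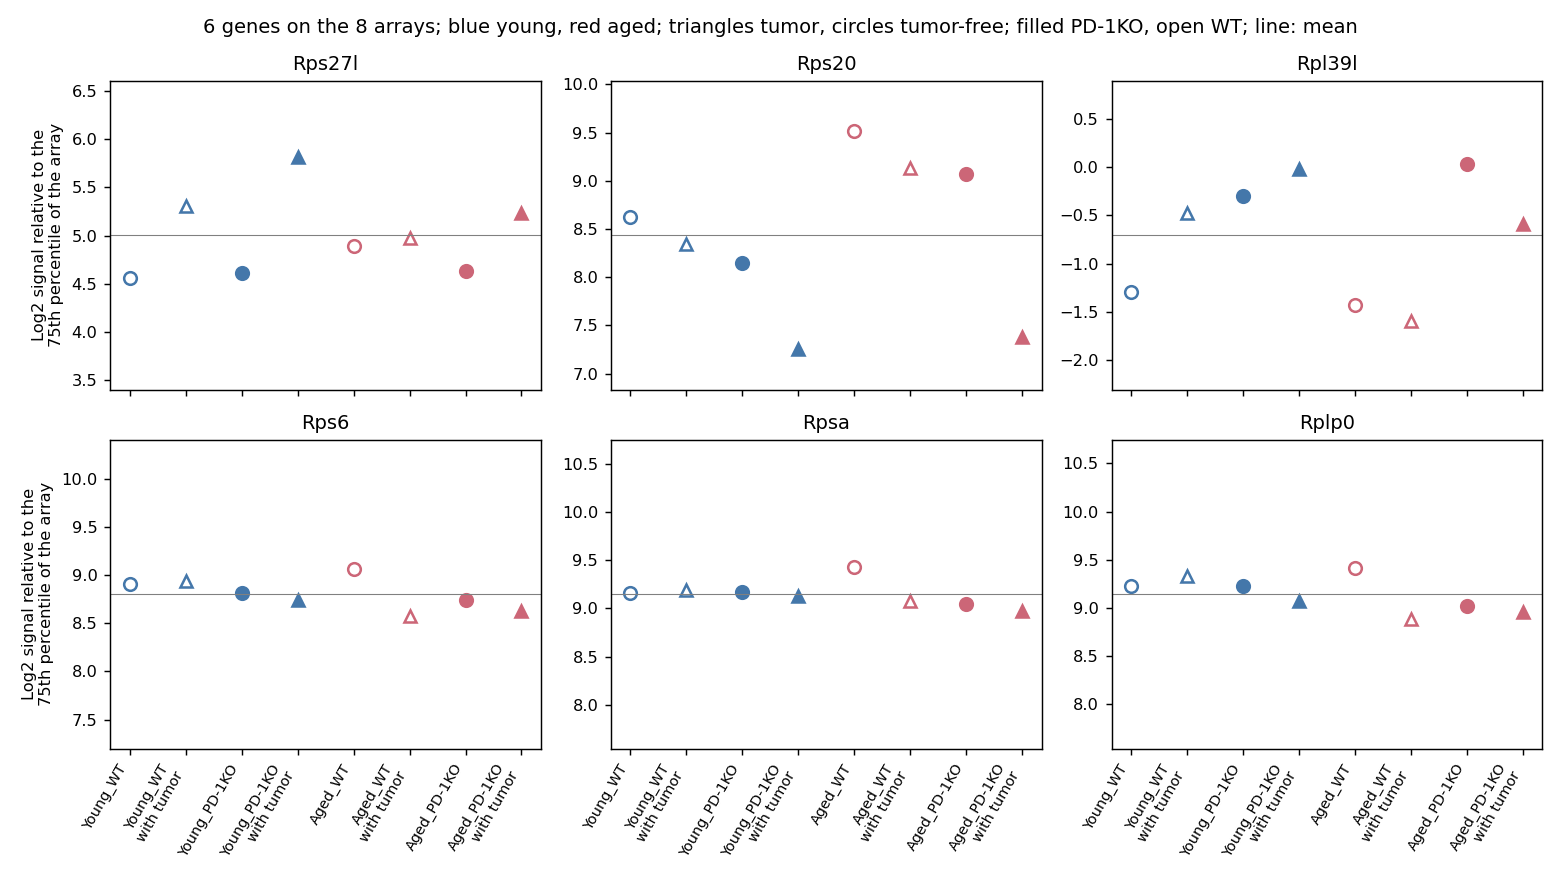
Log2 levels of 6 genes on the 8 arrays (1 point per array, y axes spanning the same range, line at the mean of the 8). Rps27l is higher on the 4 tumor arrays (4.98 to 5.81) than on the tumor-free ones (4.56 to 4.89), Rps20 is low on both PD-1KO arrays with tumor (7.26 and 7.38), and Rps6, Rpsa and Rplp0 stay close to their means.

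No interaction of the factors was called in a member by limma. Of 86 members, 1, 0 and 2 had an unadjusted p under 0.05 for age with tumor (Rpl39l), age with genotype, and genotype with tumor (Rpl37 and Rps20), where 4.08%, 2.86% and 3.2% of all features did so and 0% were called in each. The age and tumor term, the tumor difference in aged minus that in young mice, was below 0 in 83 of 86 members with a median of -0.27, against 54.7% of all features and 80.2% of the other features of level 5 or more. With quantile normalization it was below 0 in 50 of 86, with a median of -0.04. The genotype and tumor term was above 0 in 73 of 86 members and below 0 in 13, with a median of 0.15, where 49% of all features and 27.7% of the other features of level 5 or more were below 0. With quantile normalization it was above 0 in 40 of 86, with a median of -0.01. The age and genotype term was below 0 in 63 of 86 members with a median of -0.07, against 53.7% of all features and 61.7% of the other features of that level, and after quantile normalization in 36 of 86, with a median of 0.02. With 1 residual degree of freedom, these fits have little power.

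Several genes of this family are read by more than 1 probe, and the probes did not always give the same difference. Of 86 members, 45 had several kept probes, 145 probes in all members together, and limma called 0 of the 145 in any factor. The sign of the difference differed between a gene's probes in 13 genes for age, 24 for genotype and 2 for tumor, the last being Rpl39 and Rps24. For age they include Rpl24, Rpl27, Rpl36al, Rpl39, Rpl7a, Rps15a, Rps18, Rps24, Rps27, Rps28, Rps29 and Rpsa. The gene table holds 312 pseudogene symbols of the same pattern, and since probe sequences were not used here, how far a probe reads such copies was not tested.

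Rps18, a protein of the small subunit head, shows the disagreement with 3 probes. The brightest, used above, was a single spot and gave an age difference of 0.47 (SE 0.15). It read 9.25, 9.73, 9.31 and 9.07 on the young and 10.15, 9.75, 9.70 and 9.67 on the aged arrays. The second read 8.34, 8.35, 8.41 and 8.30 against 8.52, 7.92, 8.19 and 8.22, a difference of -0.14 (SE 0.13). The dimmest read 7.69, 7.76, 7.85 and 7.78 against 7.78, 6.76, 7.50 and 7.62, a difference of -0.35 (SE 0.20). The 2 dimmer probes, each printed 10 times, were lowest on Aged_WT with tumor, where the brightest did not stand apart. The mean of the 3 probes differed by -0.01. Over the 45 members with several probes, the gap between the brightest and the dimmest probe was wider on that array than on the average array by a median of 0.22 and in 33 of 45, and over 4509 other genes by 0.14 and in 63.8% (a comparison made after values were seen).

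Rps24, which is alternatively spliced and mutated in Diamond-Blackfan anemia, has 1 probe for each of 3 RefSeq transcripts, and they moved apart. The probe used, for NM_207635, read 8.97, 8.94, 7.70 and 8.94 on the young and 6.63, 8.11, 8.02 and 8.01 on the aged arrays, a difference of -0.95 (SE 0.37, adjusted p = 0.128). Its lowest value was that of Aged_WT, and without that array the difference was -0.58 (-0.61 without Young_WT). The probe for NM_207634 read 7.01, 7.71, 6.66 and 7.54 against 7.42, 7.50, 7.05 and 7.32, a difference of 0.09 (SE 0.15). The probe for NM_011297 read 4.58, 4.64, 4.77 and 4.05 against 5.18, 4.35, 4.95 and 4.46, a difference of 0.23 (SE 0.16). With tumor the differences were 0.67 and 0.48 for the first 2 probes and -0.49 for NM_011297. Each is a single spot per array.

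For genotype, the second probe of Rps10, printed 10 times, differed by 0.06 (SE 0.14) where the one used above, a single spot, differed by -0.61. Rpl7a, a large subunit protein, had a dimmer probe that read 7.91, 7.81, 8.09 and 7.65 in WT and 7.37, 6.91, 7.29 and 7.08 in PD-1KO. Those sets did not overlap, with a difference of -0.70 (SE 0.11, adjusted p over probes 0.24). The brighter Rpl7a probe differed by 0.03 (SE 0.13), with overlapping sets from 8.16 to 8.70 in WT and 8.39 to 8.71 in PD-1KO. Rpl7a was chosen because it had the widest spread between probes for genotype, 0.73.

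**Figure D4:**
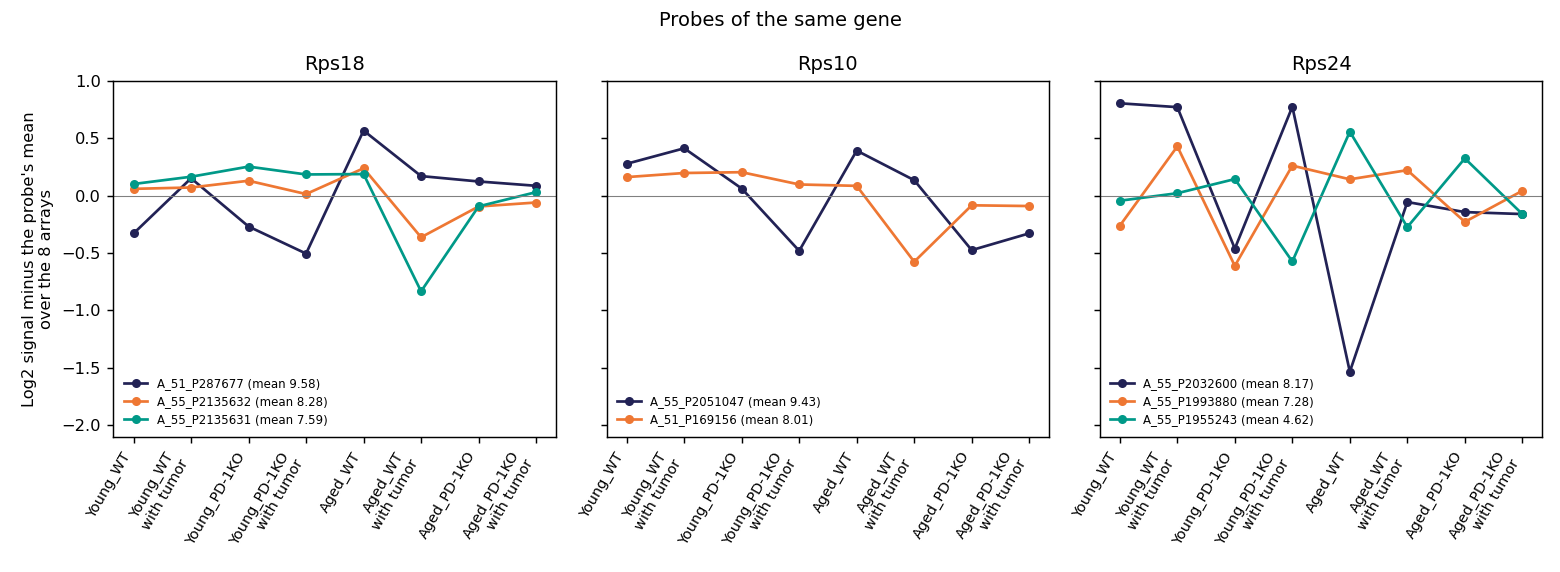
Log2 signal of each probe of Rps18, Rps10 and Rps24 on the 8 arrays, minus the mean of that probe (lines join the arrays for reading only). In Rps18 the dimmer probes dip on Aged_WT with tumor while the brightest does not, and in Rps24 the probe used dips on Aged_WT while the other 2 do not.

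Some lists of other genes of the translation machinery, chosen for this family, did hold calls with age, where 4.58% of all features fell and 6.26% rose. Of 79 genes of ribosome biogenesis, which make and modify rRNA and assemble the subunits, 13 fell with age and 0 rose, with a median of -0.28. They include Wdr74 (-0.77, SE 0.17, limma adjusted p = 0.0406), Lyar (-0.69, SE 0.16), Nop16 (-0.61, SE 0.13), Gar1, a protein of the H/ACA particle that guides pseudouridylation (-0.47), and Rrs1, needed to build the 5S particle into the large subunit (-0.45). With 1 array left out, the count ran from 0 to 12, at 0 without any one of 6 arrays, at 4 without Aged_WT with tumor and at 12 without Aged_WT. Over all features those fits called 255 to 2327, the latter without Aged_WT.

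Of 42 translation initiation factors, 5 fell with age and 0 rose, with a median of -0.23, where 4.58% of all features fell. These were Eif2a (-0.67), Denr, which helps to reinitiate and recycle (-0.59), the cap-binding proteins Eif4e3 (-0.56) and Eif4e2 (-0.49), and Eif2b1, a subunit of the exchange factor of eIF2 (-0.51). Of 20 elongation and termination factors, 1 fell (Dph2, which acts in making diphthamide on Eef2, -0.45), with a median of -0.17 and 0 to 1 calls with 1 array left out. Of 41 genes of mTORC1 and of the control of TOP mRNAs, 6 fell and 0 rose, with a median of -0.19. They were Sesn1, a sestrin that restrains mTORC1 (-0.83), Pdk1 (-0.71), Eif4ebp2, a repressor of cap-dependent initiation (-0.60), Larp7 (-0.52), Akt1s1 (-0.46) and Sesn2 (-0.40). Of these, Sesn1, Sesn2, Eif4ebp2 and Akt1s1 are known as inhibitors, and the list therefore mixes directions of action. Pdk1, a mitochondrial kinase of pyruvate dehydrogenase, and Larp7, which binds 7SK RNA, act elsewhere. Larp1 differed by -0.0016 (SE 0.14) and Mtor by -0.45 (SE 0.17, adjusted p = 0.11). With 1 array left out, the 42 initiation factors held 0 to 6 calls and the 41 genes 0 to 4. The initiation factors had 0 without any of 6 arrays and 2 without Aged_WT with tumor, and the 41 genes had 0 without any of 5 arrays, 1 without Young_PD-1KO and 3 without Aged_WT with tumor.

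Of 77 mitochondrial ribosomal proteins, which serve the ribosome of that organelle, 2 fell with age (Mrps5, -0.55, and Mrpl28, -0.48), against 4.58% of all features. The 77 proteins had a median of -0.24, and 0 to 1 calls with 1 array left out. Whether they differ from the cytosolic proteins was not tested. Of the 27 other mRNAs known to carry a TOP motif, 0 were called by limma, with a median of -0.16. An unadjusted p under 0.05 was found for 4 of them, against 35.2% of all features. Eef1a1 and Eef2, the elongation factors, differed by 0.10 (SE 0.10) and -0.17 (SE 0.10). Of 17 chaperones of ribosomal proteins and 5S particle factors, 1 fell (Rrs1, also counted above), against the same 4.58% of all features. The 14 measured snoRNA host genes, 14 ubiquitin fusions and ribosome-associated genes and 4 ribosomal protein pseudogenes held 0 limma calls. An unadjusted p under 0.05 was found for 2, 3 and 1 of these genes, against the same 35.2% of all features. In none of these lists did limma call a gene with genotype or tumor. Fau, which encodes ribosomal protein S30 fused to a ubiquitin-like protein and is outside the naming rule, differed with age by -0.06 (SE 0.12).

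**Figure D5:**
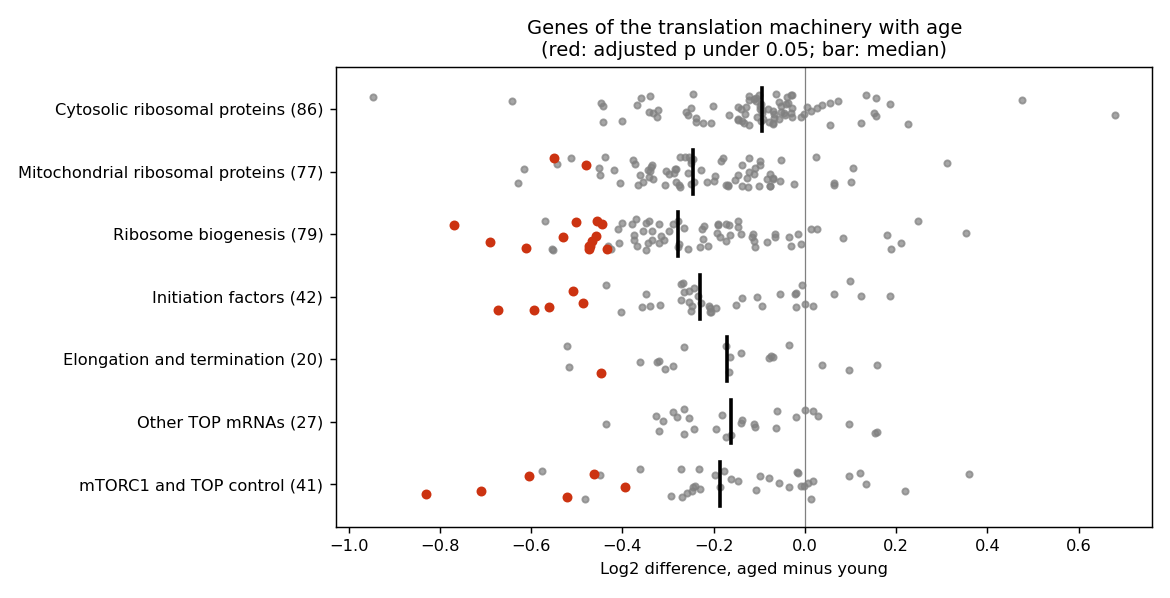
Log2 difference with age of each gene (points; red where the limma adjusted p is under 0.05) and its median (bar) for the cytosolic ribosomal proteins and 6 lists of related genes, with the number measured. The cytosolic ribosomal proteins have 0 red points and a median of -0.09, and ribosome biogenesis has 13 with a median of -0.28.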

How the data were processed

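Total RNA was labelled with Cy3 and hybridized to 1-colour Agilent mouse arrays. Per the file headers, Agilent Feature Extraction 11.0.1.1 made the deposited processed signal, an intensity after background subtraction and detrending that carries no scaling between arrays. The median signal and local background are raw intensity values, per the file headers, and the deposited flags (unit other) are 0 or 1 per spot. The authors' deposited values are in log2, and their columns share 1 median, 9.10, and have equal SDs (steps not stated).

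Here 21 flagged spots were dropped and the log2 spots of each probe averaged, after which an array's 75th percentile was taken off all its values. A probe was kept if 4 or more arrays had it well above background (27237 of 56605). RefSeq (GRCm38.p6) gave symbols to 32988 probes, and the probe of highest mean represented a gene. limma 3.58.1 (R 4.3.3, data.table version 1.17.8) fitted the 3 factors (residual degrees of freedom 4, prior 2.70) or these with their pairwise interactions (1, prior 3.29). 2-sided p-values were adjusted over the 21232 features by the Benjamini-Hochberg method, with a threshold of 0.05. Members and lists were chosen with earlier results of these data known, and no list was tested as a set.

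Named were the 5 widest differences each way per factor, the 5 of largest SD, members whose probes disagreed for age, and genes of known roles. The rule's part on highest and lowest levels was not used, since levels of different probes are not comparable. Results for a few genes are not reported here. The steps were tested on simulated data.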

Additional observations from a re-analysis of the deposited data

How the results depend on the processing

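With age, limma called 0 of 86 members, and 0 under quantile normalization, no scaling, centring on the median, the authors' values, no filter and the mean of probes. It called 5 with normexp background correction (on the median signal), 1 with the filter at all 8 arrays, 1 with an intensity trend (Rpl7l1 in both), and 0 to 1 with 1 array left out. The median difference with genotype was 0.0326 under quantile normalization and 0.0361 in the authors' values, against -0.11. No member was called with genotype, with tumor or for an interaction under the alternatives run. Among named genes, Rps18 with age was at -0.0056 with the mean of its probes. Rpl37 with genotype was at -0.0251 with normexp. With 1 array left out it ran from -0.0332 (Aged_WT with tumor left out; -0.0045 where Aged_PD-1KO with tumor was) to 0.346. Likewise Rpl15 with genotype ran from -0.116 (Aged_WT with tumor left out) to 0.362, and Rpl14 with tumor from -0.139 (Young_WT left out) to 0.497. The cause was not tested. Over all features, calls with age numbered 2303, or 3783 with normexp, 740 with no filter and 255 to 2327 with 1 array left out. Those with tumor numbered 0, or up to 331 with an intensity trend, and those with genotype 6, or 1 to 7.

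No paired analysis was possible because, with 1 array per group, the replicate number pairs no arrays. Arrays alike in the 2 other factors are matched through the additive terms. The number of arrays limits the precision. The p-values set each difference against an error taken from the departure from additivity and moderated over all features. They do not measure the spread between mice of a group.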

Other observations

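Rpl37 was measured by a probe at the dim end of the array, between -3.83 and -2.80, and was well above background on 6 of 8 arrays. Its retrotransposed copy Rpl37rt read 9.14 to 9.60 on another probe. The levels of 2 probes cannot be compared, and which of the loci each probe reads was not tested.

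Rpl14 read 8.18 on Young_WT and 9.02 to 9.60 on the other 7 arrays, and Rps12 read 8.75 on Young_WT and 9.19 to 9.63 on the others. Rpl15 read 7.29 on Aged_WT with tumor and 8.04 to 8.41 elsewhere. These 3 genes were chosen after their values were seen.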
